A study of Mus musculus with 9 samples.

Results

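The 10 genes described here encode collagen hydroxylases and collagen chaperones: the lysyl hydroxylases Plod1, Plod2 and Plod3, the prolyl 4-hydroxylase subunits P4ha1 and P4ha2, the prolyl 3-hydroxylase P3h1 with its partners Crtap and Ppib, and the chaperones Serpinh1 and Fkbp10. They were chosen by name for their role in collagen biosynthesis, out of 39179 genes listed in the count tables. Earlier results of these data were known at that choice. All 10 passed the filter on low counts that left 13418 genes to test. RNA was sequenced from laser-microdissected capillaries of the femoral ossification front (OF), the zone of new bone below the growth plate, in juvenile (4 weeks, n = 5) and adult (12 weeks, n = 4) mice, with 1 library per mouse. All mice of both ages were Tg(TIE2GFP)287Sato/J reporters on a C57BL/6 background, in which the endothelial Tie2 promoter drives GFP. GFP was used only to see the vessels: each piece also held the cells around the capillary, and cells were not sorted.

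Collagen chains are modified in the endoplasmic reticulum before they are secreted. Prolyl 4-hydroxylases make the 4-hydroxyproline that keeps the triple helix stable at body temperature, a complex of P3H1, CRTAP and cyclophilin B modifies single prolines by 3-hydroxylation, and lysyl hydroxylases prepare lysines for crosslinks and sugars. HSP47, the product of Serpinh1, binds the folded triple helix, and FKBP65, the product of Fkbp10, is a peptidyl-prolyl isomerase that assists folding and crosslink formation. Osteoblasts, which secrete the collagen I of bone, use this machinery heavily, and inherited loss of many of these genes is known to cause brittle bones.

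The library totals ran from 4856833 to 8077362 counts, and the members had between 134 and 14558 counts per library, far above the 3 counts taken as the floor, which covers counting error only. Osteoblast markers (8 genes) summed to between 19380 and 30660 CPM (a library-size scaled count) in juvenile libraries and to between 9118 and 13940 CPM in adult libraries. The endothelial sum (6 genes, all detected) was far smaller, at 266 to 522 CPM in juvenile and 325 to 475 CPM in adult libraries. Erythroid markers (7 genes) summed to 392 to 2470 CPM in juvenile and 4767 to 40720 CPM in adult libraries, and neutrophil markers (7 genes) to 5.61 to 58.4 CPM against 93.8 to 4607 CPM. All 7 genes of each of these lists passed the test as lower in juvenile libraries. Sums for the other cell types were, in juvenile and then adult libraries, 11650 to 19700 and 17940 to 26240 CPM for osteoclasts, 138 to 326 and 618 to 4050 CPM for chondrocytes, 207 to 293 and 268 to 1103 CPM for marrow stroma, and 420 to 784 and 1040 to 1767 CPM for macrophages. B cell sums ran from 0 to 20.8 and from 8.93 to 188 CPM, and megakaryocyte sums from 2.57 to 14.0 and from 64.4 to 4317 CPM. Called lower in juvenile libraries were 1 of 6 osteoclast, 2 of 5 tested chondrocyte, 1 of 6 macrophage, 1 of 2 tested megakaryocyte and 1 of 5 stromal markers, and called higher 3 of 8 osteoblast and 1 of 5 stromal markers. Adult library 4 had the highest erythroid and megakaryocyte sums and the lowest osteoblast sum. The part of these differences in the results was not tested. Ddx3y, a Y-linked gene, had 524 and 439 counts in juvenile libraries 4 and 5 and at most 1 count in every other library. Xist, expressed from the inactive X chromosome, had 11 and 1 counts in juvenile libraries 4 and 5 and 2965 to 6598 in the other 7. The age comparison thus set 5 juvenile libraries, 2 of them with 439 or more Ddx3y counts, against 4 adult libraries with at most 1, so for those 2 age and sex cannot be told apart.

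Of the 10 members, 4 rose in juvenile OF in the edgeR quasi-likelihood test at an adjusted p under 0.05: P4ha2, P3h1, Serpinh1 and Fkbp10. Over all tested genes, 1.99% were called higher in juvenile libraries. All 10 fold changes were positive, with a median log2 fold change of 0.84 against -0.01 over all tested genes. In 6 members (P4ha1, P4ha2, P3h1, Ppib, Serpinh1 and Fkbp10), every juvenile library was above every adult library, a pattern held by 5.07% of tested genes. Together, reads of the members made up 0.540% ± 0.0279 of juvenile counts and 0.331% ± 0.0520 of adult counts (SD). In these bulk pieces, fewer cells of a type and less RNA per cell cannot be told apart. Without juvenile libraries 4 and 5, those with Ddx3y counts, the test called Serpinh1 alone among the members, and the number of called genes fell from 520 to 73. The log2 fold changes were then 1.61 for P4ha2, 0.83 for P3h1, 1.29 for Serpinh1 and 0.83 for Fkbp10. With all libraries they were 1.56, 0.91, 1.22 and 0.91. That fit also held fewer juvenile libraries, and the reason for the fall in calls was not tested.

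**Figure D1:**
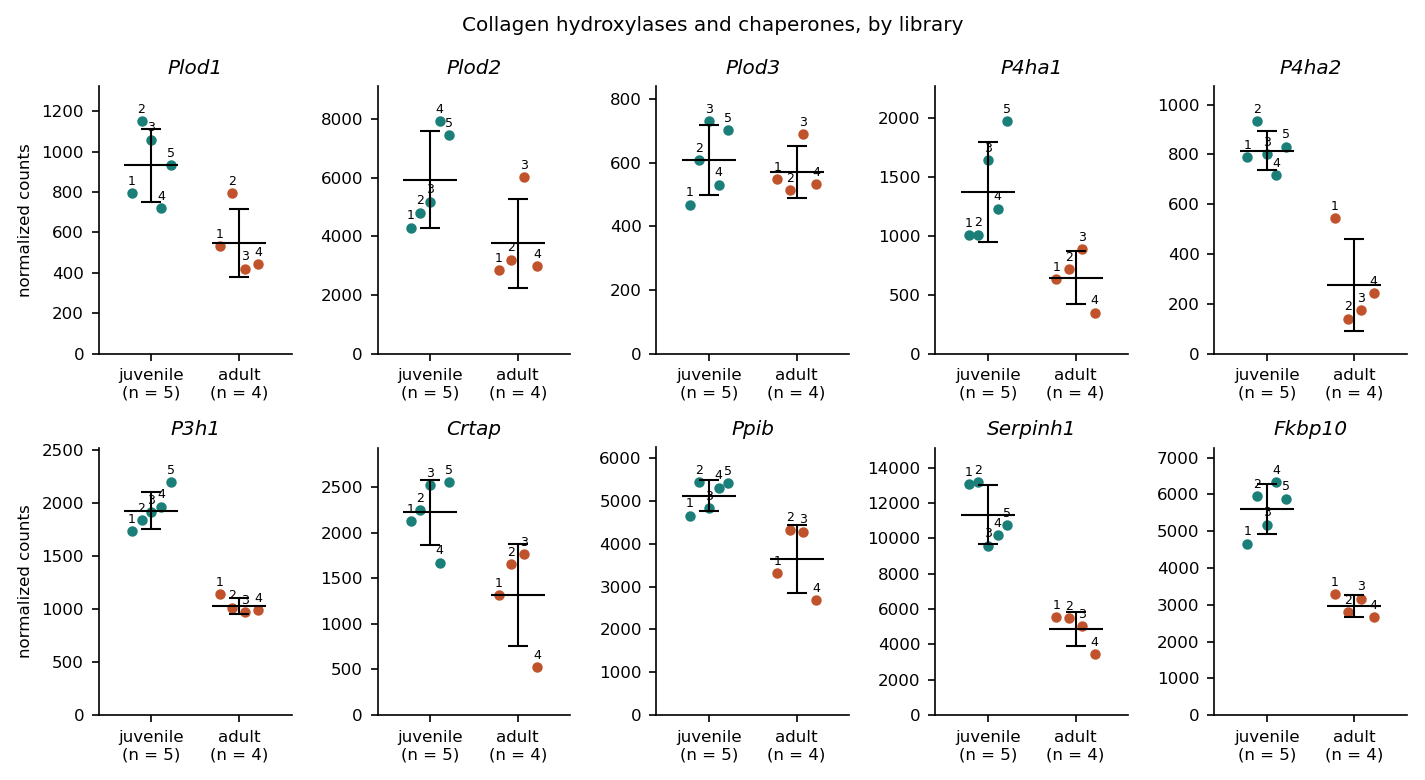
Normalised counts (linear axes that start at 0) of each of the 10 genes in the 5 juvenile and 4 adult libraries; points are libraries, numbered by replicate, and lines are the mean and SD of each age. Serpinh1, Fkbp10, P3h1, P4ha1, P4ha2 and Ppib show no overlap between ages, and the Plod3 means of 609 and 572 lie close together.

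Serpinh1 was the most abundant member and encodes the collagen-specific chaperone HSP47 (ENSMUSG00000070436, GRCm38 chromosome 7, 99345376 to 99353239, minus strand). Normalised counts, scaled by TMM to an average library, were 13051, 13162, 9578, 10180 and 10748 in juvenile libraries 1 to 5 and 5534, 5469, 5046 and 3438 in adult libraries 1 to 4. The lowest juvenile library was well above the highest adult library. The log2 fold change was 1.22 (SE 0.18, 95% interval 0.83 to 1.61), with an adjusted p of 0.00309 in edgeR. It passed the test with any 1 library left out, with adjusted p between 0.00477 and 0.0129. Fkbp10, the second chaperone (ENSMUSG00000001555, chromosome 11, 100415697 to 100424824, plus strand), had 4666, 5963, 5183, 6329 and 5883 normalised counts in juvenile libraries. Its adult libraries had 3280, 2797, 3165 and 2656 normalised counts, again below every juvenile value. Its log2 fold change was 0.91 (SE 0.15, adjusted p = 0.00626 in edgeR). The Fkbp10 call was kept with any 1 library left out, with adjusted p between 0.00832 and 0.0207. It was lost without juvenile libraries 4 and 5 together (adjusted p = 0.0737). The Fkbp10 exons share 193 bases with Nt5c3b on the other strand, a gene with 146 to 931 counts per library.

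P3h1, Crtap and Ppib encode the subunits of the prolyl 3-hydroxylation complex, and only the catalytic subunit passed the test in these libraries. P3h1 (ENSMUSG00000028641, chromosome 4, 119232915 to 119248975, plus strand) had 1734, 1840, 1917, 1966 and 2196 normalised counts in juvenile libraries and 1143, 1013, 973 and 987 in adult libraries. The libraries of each age lay close together, with a coefficient of variation of 8.93% in juvenile and 7.58% in adult OF. The log2 fold change was 0.91 (SE 0.15, 95% interval 0.59 to 1.23, adjusted p = 0.00626 in edgeR). The P3h1 call was kept with any 1 library left out, with adjusted p between 0.00912 and 0.0228. Without juvenile libraries 4 and 5 together the adjusted p was 0.0728. Crtap, which encodes the helper protein of the complex (ENSMUSG00000032431, chromosome 9, 114375134 to 114390675, minus strand), had 2128, 2245, 2525, 1670 and 2552 normalised counts in juvenile and 1317, 1652, 1767 and 524 in adult libraries. Juvenile library 4 was below adult library 3, and adult library 4 was the lowest of all. The log2 fold change of Crtap was 0.76 (95% interval 0.13 to 1.39, adjusted p = 0.184). Ppib, encoding the isomerase cyclophilin B (ENSMUSG00000032383, chromosome 9, 66060222 to 66066623, plus strand), had 4658 to 5440 normalised counts in juvenile and 2690 to 4338 in adult libraries. The ages did not overlap, but the log2 fold change of 0.49 (95% interval 0.13 to 0.85) had an adjusted p of 0.132. Ppib exons share 825 bases with Snx22, which lies on the other strand and had 2760 to 4569 counts per library. The counting was not stated to use strand, so reads in the shared stretches of such gene pairs cannot be told apart.

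The catalytic subunits of prolyl 4-hydroxylase, P4ha1 and P4ha2, both lay higher in every juvenile library. P4ha2 (ENSMUSG00000018906, chromosome 11, 54100095 to 54131665, plus strand) had 790, 935, 800, 718 and 831 normalised counts in juvenile libraries. In adult libraries it had 544, 140, 174 and 243, so adult library 1 lay well above the others. This spread gave a coefficient of variation of 66.9% in adult OF, against 9.70% in juvenile OF. P4ha2 had the largest log2 fold change of the members, 1.56 (SE 0.35, 95% interval 0.81 to 2.31, adjusted p = 0.0267 in edgeR). The call was lost when any juvenile library or adult library 3 or 4 was left out, with adjusted p between 0.0502 and 0.0733. P4ha1 (ENSMUSG00000019916, chromosome 10, 59323296 to 59373304, plus strand) had 1006, 1010, 1644, 1231 and 1977 normalised counts in juvenile and 633, 715, 889 and 346 in adult libraries. Its log2 fold change was 1.09 (SE 0.29, 95% interval 0.47 to 1.71), just short of the threshold with an adjusted p of 0.0546, and DESeq2 at default settings gave 0.00801.

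The lysyl hydroxylases Plod1, Plod2 and Plod3 did not pass the test. Plod1 (ENSMUSG00000019055, chromosome 4, 147909753 to 147936767, minus strand), which acts mainly on lysines of the triple helix, had 794, 1152, 1059, 720 and 933 normalised counts in juvenile libraries. Its adult libraries had 531, 792, 421 and 444, so that adult library 2 reached into the juvenile range. The log2 fold change was 0.77 (95% interval 0.27 to 1.27, adjusted p = 0.0885 in edgeR), and without adult library 2 it was 0.98 with an adjusted p of 0.0261. Plod2 (ENSMUSG00000032374, chromosome 9, 92542223 to 92608428, plus strand), the hydroxylase of the collagen telopeptides, had 4301, 4813, 5189, 7947 and 7448 normalised counts in juvenile libraries. Adult libraries 1, 2 and 4 had 2855, 3201 and 2977, while adult library 3 had 6016 and lay above the juvenile median. The log2 fold change was 0.66 (95% interval 0.10 to 1.22, adjusted p = 0.199), and without adult library 3 it was 0.96 with an adjusted p of 0.0455 in edgeR. Plod3 (ENSMUSG00000004846, chromosome 5, 136987019 to 136996648, plus strand), which also transfers sugars to hydroxylysine, had 469 to 732 normalised counts in juvenile and 515 to 691 in adult libraries. The 2 ranges almost coincided, with a log2 fold change of 0.09 (95% interval -0.34 to 0.52, adjusted p = 0.890). Plod3 exons share 529 bases with Znhit1 on the other strand, which had 162 to 453 counts per library.

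Promoter sequences of 8 members were given by RefSeq (GRCm38.p6), all but Plod2 and Fkbp10, with 2 starts for P3h1. Those of the called members P4ha2, P3h1 and Serpinh1 and, for contrast, of Plod3, the member with the smallest fold change, are shown for the 250 bases before the start, 5′ to 3′ on the gene's strand. Capitals mark the letters ACGTG or GCGTG, the core of the element bound by hypoxia-inducible factors, or their reverse complement, and neighbouring matches may overlap. They lie at chr11:54100674-54100923 (plus), chr4:119232665-119232914 (plus), chr7:99353240-99353489 (minus) and chr5:136986769-136987018 (plus).
P4ha2: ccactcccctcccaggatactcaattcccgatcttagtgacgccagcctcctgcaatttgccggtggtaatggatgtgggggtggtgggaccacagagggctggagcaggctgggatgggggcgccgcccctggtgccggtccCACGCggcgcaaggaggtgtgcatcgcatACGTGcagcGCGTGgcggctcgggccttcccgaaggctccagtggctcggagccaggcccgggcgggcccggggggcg
P3h1: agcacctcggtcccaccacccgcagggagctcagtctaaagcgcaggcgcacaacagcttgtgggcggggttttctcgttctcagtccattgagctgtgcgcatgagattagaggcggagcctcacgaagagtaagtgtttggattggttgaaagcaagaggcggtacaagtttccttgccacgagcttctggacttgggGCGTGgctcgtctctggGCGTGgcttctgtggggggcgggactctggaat
Serpinh1: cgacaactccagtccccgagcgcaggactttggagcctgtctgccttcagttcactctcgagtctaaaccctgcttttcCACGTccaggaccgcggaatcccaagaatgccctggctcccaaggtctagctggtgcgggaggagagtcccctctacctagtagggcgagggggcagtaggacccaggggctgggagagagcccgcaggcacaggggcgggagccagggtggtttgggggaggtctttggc
Plod3: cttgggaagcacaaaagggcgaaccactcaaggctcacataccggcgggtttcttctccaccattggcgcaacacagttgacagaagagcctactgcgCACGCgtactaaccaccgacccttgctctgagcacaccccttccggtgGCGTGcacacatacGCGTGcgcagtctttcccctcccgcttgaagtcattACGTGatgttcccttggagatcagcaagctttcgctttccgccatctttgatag

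The RefSeq start used for P4ha2 lies inside the gene as GENCODE places it (54100095 to 54131665), and so does its window. The core occurred 3 times before this P4ha2 start, at 107, 78 and 69 bases from it. It occurred 2 times before P3h1 and 1 time before Serpinh1. It occurred 4 times before Plod3, which did not differ by the test. All 9 member sequences held it, against 38.6% of the 32851 mouse promoter sequences of this length. The member sequences were rich in G and C (53.6% to 70.0%), and of the 15159 promoters with at least 53.6% GC, 56.1% held the core. The letters CCAAT, searched on both strands as all others were, stood in 4 of the 9 sequences and in 33.8% of all promoters. GGGCGG stood in 6 of the 9 and in 32.7% of all, the RUNX core TGTGGT in 2 and in 14.0%, and TATAAA in 2 and in 12.4%. The heat shock pair GAANNTTC was in 6.69% of all promoters and had no match in the 9 windows. These matches are descriptions of letters and are not measured binding.

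Levels of different members were compared per length, as TMM-scaled CPM per kilobase of exon. Serpinh1 was highest, with 740 ± 108 in juvenile and 318 ± 63.9 in adult OF (SD). Fkbp10 followed with 304 ± 36.3 and 161 ± 16.1, then Ppib with 247 ± 17.4 and 176 ± 38.5, Crtap with 200 ± 32.3 and 118 ± 50.4, and Plod2 with 176 ± 48.6 and 111 ± 44.6. P3h1 had 80.0 ± 7.14 and 42.6 ± 3.23, and P4ha1 had 53.2 ± 16.5 and 25.0 ± 8.77. The lowest level in juvenile OF was shared by Plod1, Plod3 and P4ha2, with 21.9 ± 4.22, 21.5 ± 3.92 and 20.8 ± 2.02, which differed by less than their spread. In adult OF, Plod3 had 20.2 ± 2.85, Plod1 12.9 ± 4.01 and P4ha2 7.03 ± 4.70. Ppib and Fkbp10 in adult OF, and Crtap and Plod2 at both ages, also differed by less than their spread. In adult OF, Fkbp10 and Crtap, and P4ha1 and Plod3, differed by less than the larger of their SDs.

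**Figure D2:**
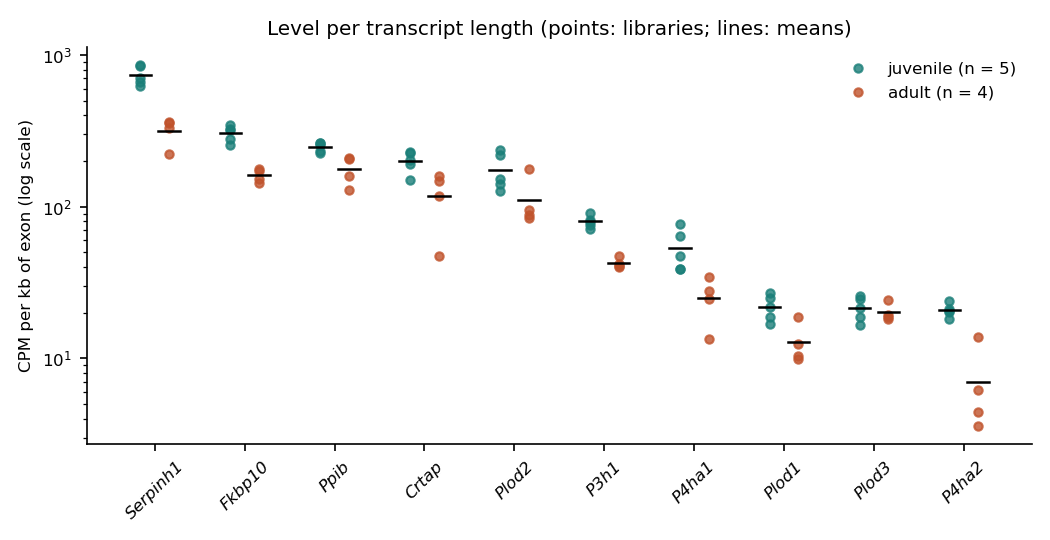
CPM per kilobase of exon (logarithmic axis) of the 10 genes, one point per library for 5 juvenile and 4 adult libraries, with lines at the means. Serpinh1 stands highest at 740 and 318, and P4ha2 in adult OF stands lowest at 7.03.

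Whether the machinery kept pace with its substrate was examined by scaling each gene to the reads of collagen I. Col1a1 and Col1a2 themselves rose by 1.37 (SE 0.14) and 1.26 (SE 0.15) on the log2 scale in juvenile OF, with adjusted p of 0.000426 and 0.00109 in edgeR. Together they took 14.9% ± 1.12 of juvenile and 6.74% ± 0.859 of adult counts. On the collagen I scale the median of all tested genes was -1.34 and that of the members -0.45, so log2 changes of members are to be read against the former. By this scale 56.2% of tested genes were called lower in juvenile libraries, and 40.3% had every juvenile library below every adult library.

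Serpinh1 reads per 1000 collagen I reads were 14.0, 13.5, 10.98, 9.26 and 10.0 in juvenile and 13.8, 11.9, 11.8 and 10.99 in adult libraries. The ages overlapped, and the log2 difference was -0.07 (95% interval -0.45 to 0.30, adjusted p = 0.721 in edgeR). P4ha2 had 0.653 to 0.957 reads per 1000 collagen I reads in juvenile and 0.306 to 1.35 in adult libraries, and P4ha1 had 1.39 ± 0.433 and 1.58 ± 0.400. Their log2 differences were 0.22 (95% interval -0.59 to 1.03) and -0.19 (95% interval -0.75 to 0.38), neither past the threshold.

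Per collagen I read, 4 members were called lower in juvenile OF: Plod2, Plod3, Ppib and Fkbp10. On this scale 56.2% of tested genes were called lower, so 4 of 10 members is below that share. Every juvenile library was below every adult library in 40.3% of tested genes. Ppib had 4.98, 5.57, 5.55, 4.83 and 5.05 reads per 1000 collagen I reads in juvenile and 8.25, 9.46, 10.1 and 8.60 in adult libraries. No juvenile value came near the adult range, and the log2 difference was -0.81 (SE 0.15, adjusted p = 0.000934 in edgeR). Plod3 had 0.501, 0.623, 0.839, 0.483 and 0.655 reads in juvenile and 1.37, 1.12, 1.62 and 1.70 in adult libraries, with a log2 difference of -1.23 (SE 0.24, adjusted p = 0.00104). These 2 calls held with any 1 library left out. Plod2 had 5.93 ± 1.17 reads in juvenile and 9.43 ± 3.33 in adult OF, with a log2 difference of -0.67 (adjusted p = 0.0271), a call lost without juvenile library 1 or 2 or adult library 3 or 4. Fkbp10 had 5.66 ± 0.439 and 7.55 ± 1.06 reads, with a log2 difference of -0.42 and an adjusted p of 0.0447, a call kept in 1 of the 9 fits with a library left out, that without adult library 2. P3h1 had 1.95 ± 0.166 and 2.62 ± 0.456 reads and did not overlap between ages, with a log2 difference of -0.42 and an adjusted p of 0.0613. Plod1 had 0.953 ± 0.238 and 1.36 ± 0.305 reads, and Crtap 2.27 ± 0.492 and 3.18 ± 1.06 reads, with adjusted p of 0.0876 and 0.125. The calls of Plod2, Plod3, Ppib and Fkbp10 lie on the side of most genes on this scale, and -1.23, the lowest member value, was still above the median of all genes.

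**Figure D3:**
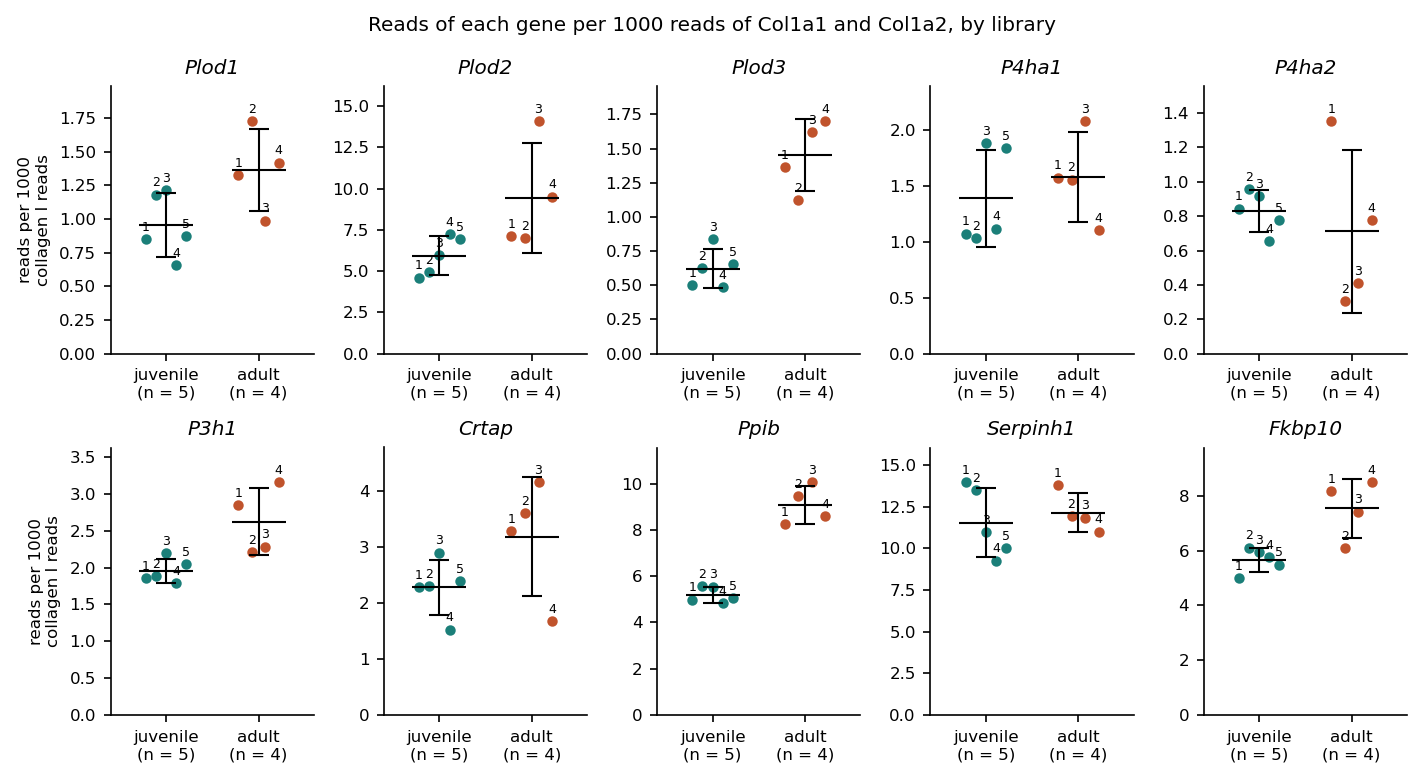
Reads per 1000 collagen I reads (Col1a1 plus Col1a2; linear axes that start at 0) of the 10 genes in 5 juvenile and 4 adult libraries, with the mean and SD of each age. Ppib and Plod3 were lower in all juvenile libraries, and Serpinh1 had means of 11.5 and 12.1 with overlapping points.

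A second scale set the members against osteoblasts, by the geometric mean of the 8 osteoblast markers, which was 562 ± 38.6 CPM in juvenile and 388 ± 20.7 CPM in adult OF. Of these markers, 3 were themselves called higher in juvenile OF. On this scale the median of all tested genes was -0.71 and that of the members 0.16. Serpinh1 was called higher, as were 0.865% of tested genes, with a log2 difference of 0.54 (SE 0.18, adjusted p = 0.0449 in edgeR). The Serpinh1 call was kept in 3 of the 9 fits with a library left out, those without juvenile library 3 or 4 or adult library 1. Plod3 was called lower at -0.61 (SE 0.20, adjusted p = 0.0474), where 21.8% of tested genes were called lower, so 1 of 10 members is below that share. Of the 9 fits with a library left out, those without juvenile library 5 or adult library 2 kept this call. P4ha2 differed by 0.85 (95% interval 0.06 to 1.63, adjusted p = 0.108), and the other members lay between -0.19 and 0.42 and were not called. Collagen I reads divided by the geometric mean of the marker counts gave 266 ± 29.6 in juvenile and 173 ± 14.0 in adult OF.

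**Figure D4:**
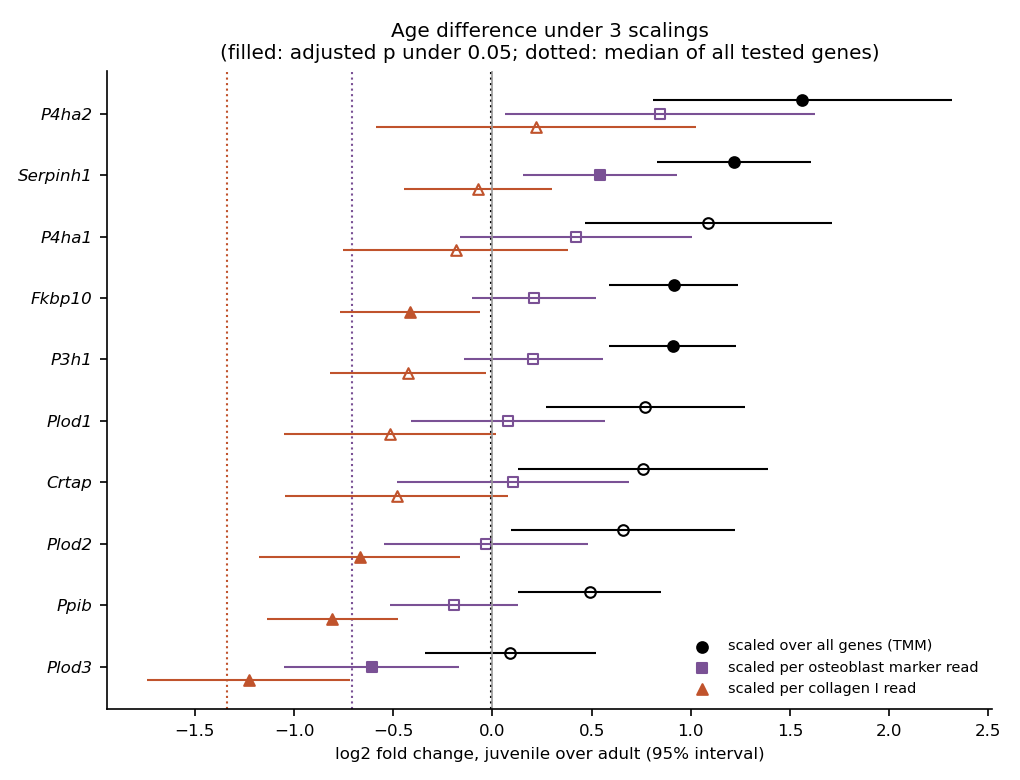
Log2 fold change, juvenile over adult, with its 95% interval for each of the 10 genes. Circles are scaled over all genes by TMM. Squares, labelled per osteoblast marker read, are scaled by the geometric mean of the osteoblast marker counts. Triangles are scaled per collagen I read. Filled symbols passed an adjusted p of 0.05. Dotted lines are the medians of all tested genes in the same order (-0.01, -0.71 and -1.34). Serpinh1 moves from 1.22 to 0.54 and -0.07, and Plod3 from 0.09 to -0.61 and -1.23.

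Partners were also compared as ratios within a library, 5 ratios in all, with a two-sided exact permutation test whose smallest p is 0.00794. The ratio of Ppib to P3h1, members of one complex, was 1.41 ± 0.10 on the log2 scale in juvenile and 1.80 ± 0.36 in adult OF (SD). This difference of -0.39 had an exact p of 0.0397 and an adjusted p of 0.198. The ratio of P3h1 to Crtap differed by 0.02 (exact p = 1), with adult values from -0.86 to 0.91. Fkbp10 to Serpinh1 differed by -0.32 (exact p = 0.151, adjusted 0.377), and P4ha2 to P4ha1 by 0.65 (exact p = 0.294, adjusted 0.489). Plod2 to Plod1, the telopeptide against the helical lysyl hydroxylase, differed by -0.10 (exact p = 0.794, adjusted 0.992).

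Of 16 further collagen modification genes, 7 rose in juvenile OF and the other 9 were not called, with a median log2 fold change of 0.67, beside the 1.99% of tested genes called higher. With 1 library left out the count was 3 to 6. It was 3 without juvenile library 3 or adult library 3, and 4 without juvenile library 2 or 5 or adult library 4. The calls of Creb3l1, P3h3 and Kdelr2 were kept in all 9 such fits, that of Fkbp11 in 7, those of P3h4 and Fkbp14 in 2 each and that of P4hb in 1. Creb3l1, a transcription factor of the endoplasmic reticulum known to drive collagen I in osteoblasts, had the largest change among these 7. It had 3153 ± 437 normalised counts in juvenile and 1052 ± 251 in adult OF, a log2 fold change of 1.58 (SE 0.19, adjusted p = 0.00109 in edgeR). P3h3 and P3h4, whose products act with lysyl hydroxylase 1, rose by 1.44 (SE 0.23, adjusted p = 0.00535) and 1.03 (SE 0.25, adjusted p = 0.0384). P3h3 had 1145 ± 139 and 421 ± 121 normalised counts, and P3h4 had 1186 ± 231 and 580 ± 222. The isomerases Fkbp11 and Fkbp14 rose by 1.11 (SE 0.23, adjusted p = 0.0183) and 1.09 (SE 0.26, adjusted p = 0.0382). The Fkbp14 call was lost in limma voom (adjusted p = 0.0536) and in all fits with a library left out except those without juvenile library 4 or adult library 2. Kdelr2, a receptor that returns proteins such as HSP47 to the endoplasmic reticulum, had 2903 ± 342 and 1373 ± 274 normalised counts and rose by 1.08 (SE 0.18, adjusted p = 0.00626).

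P4hb, the protein disulphide isomerase that pairs with P4ha1 or P4ha2 in the active enzyme, had 5406 ± 290 normalised counts in juvenile and 3597 ± 554 in adult OF. Its log2 fold change was 0.59 (SE 0.15, adjusted p = 0.0448). The call was kept only without adult library 2 (adjusted p = 0.0484) among the 9 fits with a library left out, and was also lost in edgeR with DESeq2 size factors (0.0549) or without the filter on low counts (0.0750). P4ha3, the remaining catalytic subunit, had no count in juvenile libraries 1, 4 and 5 and in adult library 3 and was not called. P3h2, Colgalt2 and Tmem38b had negative fold changes on low counts and were not called. Without juvenile libraries 4 and 5, the test called 1 of the 16.

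**Figure D5:**
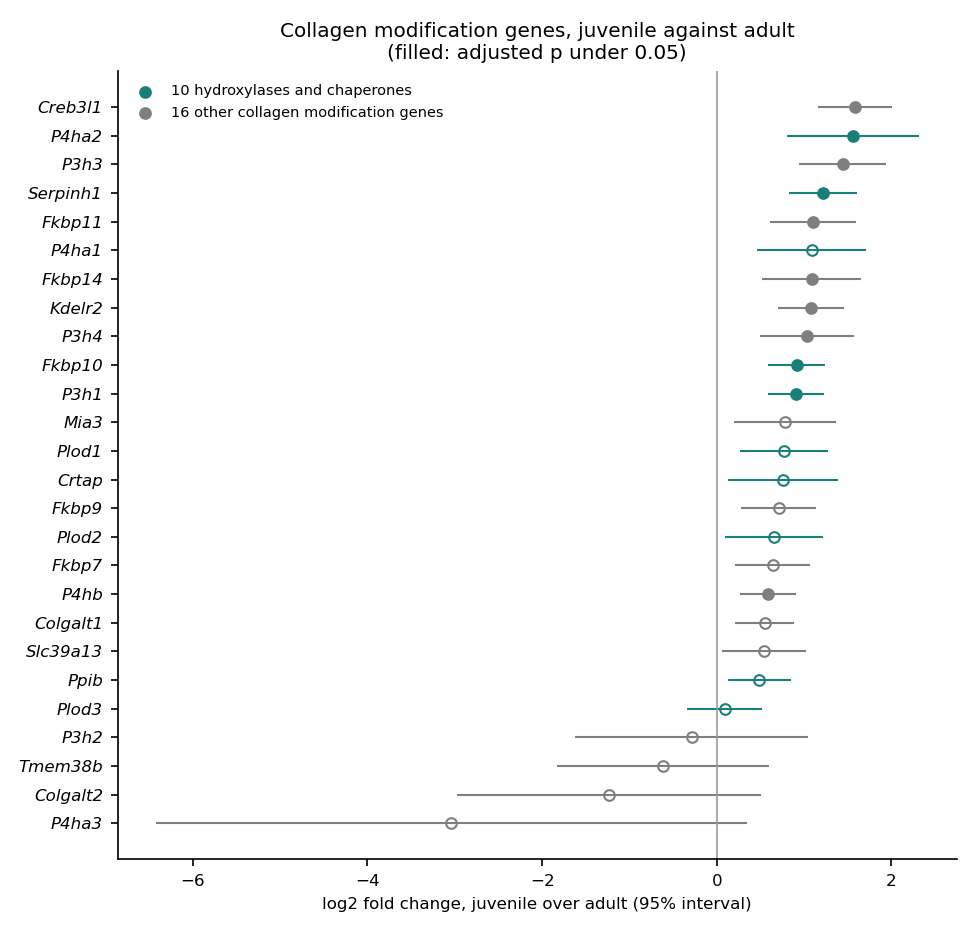
Log2 fold change, juvenile over adult, with 95% interval for the 10 hydroxylases and chaperones and the 16 other collagen modification genes, in order of size; filled points passed an adjusted p of 0.05. Filled points run from 0.59 (P4hb) to 1.58 (Creb3l1), and the 4 genes below 0 are open with wide intervals.

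The tested genes whose pattern over the 9 libraries lay nearest to each called member were found by the root mean square (RMS) difference of log2 normalised counts, each centred on its own mean. Nearest to Serpinh1 were Gpx7, a peroxidase of the endoplasmic reticulum (0.17), Col1a1, a gene of its substrate (0.18) and Heg1 (0.18). P3h1 lay nearest to Fkbp10 (0.12), Sec61a1, a subunit of the protein translocation channel (0.12), and Rcn3, a calcium-binding protein of the endoplasmic reticulum (0.14). Nearest to Fkbp10 were AU040320 (0.09), Mbd2 (0.11) and P3h1 (0.12). The nearest genes to P4ha2 were farther away, namely Hes6 (0.28), Cul7 (0.29) and Bclaf3 (0.32). Among the members, P3h1 and Fkbp10 were the closest pair and Plod3 and P4ha2 the farthest apart.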

How the data were processed

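Libraries were made by the authors with a SMART-Seq kit and sequenced as 75 bp paired-end reads, which were mapped to mm10 (GRCm38) with TopHat2 and Bowtie2. The submitters' processing notes also name featureCounts. Strand setting, handling of pairs and annotation release were not given in the sources used here. The values are raw read counts per Ensembl gene, deposited as 1 table per library. Groups came from the age labels, and gene names from GENCODE M21, which held 96.2% of the identifiers. None of the 36 pairs of libraries were copies.

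Ages were compared with edgeR 4.0.16 (R 4.3.3): filterByExpr (minimum count 10), TMM, quasi-likelihood F test, Benjamini-Hochberg adjustment over all tested genes, called under 0.05. The fit was repeated with the collagen I counts, or the geometric mean of the osteoblast markers, as library size. SE is the log2 fold change over the root of F. Ratios used a prior count of 2 and a two-sided exact permutation test. Exon lengths were unions over transcripts, so levels per length depend on alternative exons. The fits were tested on simulated counts. For the scaled fits the simulated reference was made of unchanged genes, so a reference that itself differs by age was not simulated.

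Named were all 10 members, Col1a1 and Col1a2, the called genes of the wider list with P4hb and those without counts, and the 3 nearest genes of each called member. P3h2, Colgalt2 and Tmem38b were named after their values were seen. The members and lists were chosen with earlier results of these data known. Alternatives were DESeq2 1.42.0 (default fit, and its size factors), limma 3.58.1 voom, upper quartile scaling, other filters, other references, the replicate number as a block, and libraries left out. Python 3.11.15 with matplotlib 3.10.9 drew the figures.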

Additional observations from a re-analysis of the deposited data

Results flagged for a closer look

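Among 38 groups of values checked for a library set apart from the others of its age by Dixon's criterion, 2 were found, where chance would give about 1.9. Plod2 in adult library 3 had 6016 normalised counts, where the other adult libraries had 2855 to 3201. P4hb in juvenile library 1 had 4895 normalised counts, where the other juvenile libraries had 5491 to 5614.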

How the results depend on the processing

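In the comparison of ages, DESeq2 size factors, upper quartile scaling, limma voom, both other filters and leaving out haemoglobin, immunoglobulin and mitochondrial genes gave 4 or 5 called members, and DESeq2 at default settings 6 (Plod1 and P4ha1 in addition) with 1490 genes called in all. Leaving out single libraries gave 3 to 5 members and 3 to 6 of the 16 further genes. With juvenile libraries 4 and 5 both left out, 1 member (Serpinh1, log2 fold change 1.29, adjusted p = 0.0359 in edgeR) and 1 further gene were called. The replicate number as a block gave 1 member (Serpinh1, 1.25, adjusted p = 0.0249), 1 further gene and 89 genes in all. Same-numbered libraries did not deviate together (correlations from -0.03 to 0.03 in 4 pairs), and the numbers do not pair the mice.

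Relative to collagen I, single libraries left out gave 2 to 5 called members. Relative to osteoblast markers they gave 0 to 2 members called higher. With the median of the scaled markers as reference, with the block, or without juvenile libraries 4 and 5, edgeR called 0 members higher relative to osteoblast markers. In these fits 2, 2 and 1 members were higher at an unadjusted p under 0.05, not counting members that were lower. Of the ratios, 1 had an unadjusted exact p under 0.05, 0 without juvenile libraries 4 and 5, and 0 or 1 with single libraries left out.

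Directions reversed for values near 0. Serpinh1 relative to collagen I was 0.0776 without juvenile libraries 4 and 5, and the P3h1 to Crtap log2 ratio was then -0.11. With single libraries left out, this ratio ran from -0.19 to 0.40 and Plod2 to Plod1 from -0.35 to 0.26. P4ha2 relative to collagen I ran from -0.0301 to 0.74. Relative to osteoblast markers, Plod1 ran from -0.0462 to 0.27, Plod2 from -0.15 to 0.24 and Crtap from -0.13 to 0.25. The causes were not tested.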
